A study of Mus musculus with 6 samples.

Results

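The genes described here encode the 4 fibroblast growth factor (FGF) receptors, the ligands FGF2 and FGF8, colony-stimulating factor 1 and its receptor, and leukaemia inhibitory factor and its receptor. They were taken by name (Fgfr1, Fgfr2, Fgfr3, Fgfr4, Fgf2, Fgf8, Csf1, Csf1r, Lif and Lifr), and all 10 were found among the 24495 gene symbols of the count table. Of the 10, 9 passed the filter on low counts, as did 14855 symbols in all, and Fgf2 did not. The samples were cultured spermatogonial stem cells (the cells that renew the male germline) from DBA2 mice aged 5 to 8 days after birth. One group of 3 libraries came from cultures given 2 uM EPZ5676 (pinometostat, an inhibitor of the histone methyltransferase DOT1L), and the other 3 came from control cultures given 0.2% ethanol, each for 2 weeks. The comparison asks whether these genes differ in mRNA level when DOT1L is inhibited.

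FGF receptors are tyrosine kinases at the cell surface that bind FGFs together with heparan sulphate. They signal through the adaptor FRS2 to the RAS and MAP kinase cascade. FGF2 and GDNF are the growth factors best known for keeping spermatogonial stem cells dividing in culture. LIF binds LIFR, which pairs with gp130 (Il6st) and activates JAK kinases and STAT3. CSF1 is known as the growth factor of macrophages, which carry its receptor CSF1R, and in the testis it is made by somatic cells near the stem cells.

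Total gene counts were 19866337, 54645903 and 20676993 in EPZ5676 replicates 1, 2 and 3, and ran from 17784332 to 21046473 in the ethanol libraries. EPZ5676 replicate 2 was thus by far the deepest library, which raises its unscaled counts. Germ cell genes were abundant in all 6 libraries: Dazl averaged 1769 and 1695 CPM, Uchl1 898 and 953 CPM, and Ddx4 649 and 663 CPM with EPZ5676 and ethanol, where CPM is the count scaled to library size by edgeR's TMM method. The 21 germ cell markers summed to 5494 to 5644 CPM with EPZ5676 and 5313 to 5755 CPM with ethanol. Markers of other cell types were also detected. The 26 fibroblast markers found in the table, led by Fn1, Col1a1 and Thbs1, summed to 1744, 2320 and 1940 CPM in EPZ5676 replicates 1, 2 and 3, and to 1696, 3199 and 1899 CPM in ethanol replicates 1, 2 and 3. The 10 peritubular and smooth muscle markers, led by Acta2, Tagln and Mylk, summed to 82.7, 121 and 94.7 CPM in EPZ5676 replicates 1, 2 and 3 and to 89.5, 176 and 82.4 CPM in the ethanol replicates in the same order. Of the Sertoli markers, Tjp1 (567 and 565 CPM with EPZ5676 and ethanol), a junction gene of many cell types, and Wt1 were highest, while Amh, Cldn11, Fshr, Cst12 and Cst9 each averaged under 0.3 CPM. Star was the 1 tested Leydig marker, Cyp11a1 and Cyp17a1 were next, and Lhcgr had no count. Flt1, Pecam1 and Tek led the endothelial markers. Both replicate 2 libraries stood apart: the first principal component of log2 CPM, with 48.7% of the variance, placed them at 25.1 (EPZ5676) and 39.6 (ethanol), and the other 4 libraries between -18.0 and -13.5. In such bulk samples, fewer cells of a type and less RNA per cell cannot be told apart.

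No gene of the set passed the test, and none had groups that did not overlap. Across all 14855 genes, the quasi-likelihood test of edgeR, fitted without a replicate block and adjusted after Benjamini and Hochberg, called 0%, with a smallest adjusted p of 0.18. An unadjusted p under 0.05 was found for 7.41% (3.84% higher and 3.57% lower). With the replicate number as a block, 0.653% were called (0.323% higher and 0.33% lower), and 18.5% had an unadjusted p under 0.05 (9.01% higher and 9.51% lower). DESeq2 called 22 higher and 28 lower genes without the block. The 9 tested genes of the set had 0 calls, and 0 unadjusted p under 0.05, in both fits. Groups did not overlap for 0 of the 10 genes, against 14.9% of all genes tested (7.22% higher and 7.64% lower). All 3 same-numbered pairs of libraries differed in 1 direction for 6 of the 10, with Fgfr1, Fgfr4, Fgf2, Csf1r and Lifr lower and Fgfr3 higher, against 41.8% of all genes tested (22.3% lower and 19.5% higher).

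**Figure D1:**
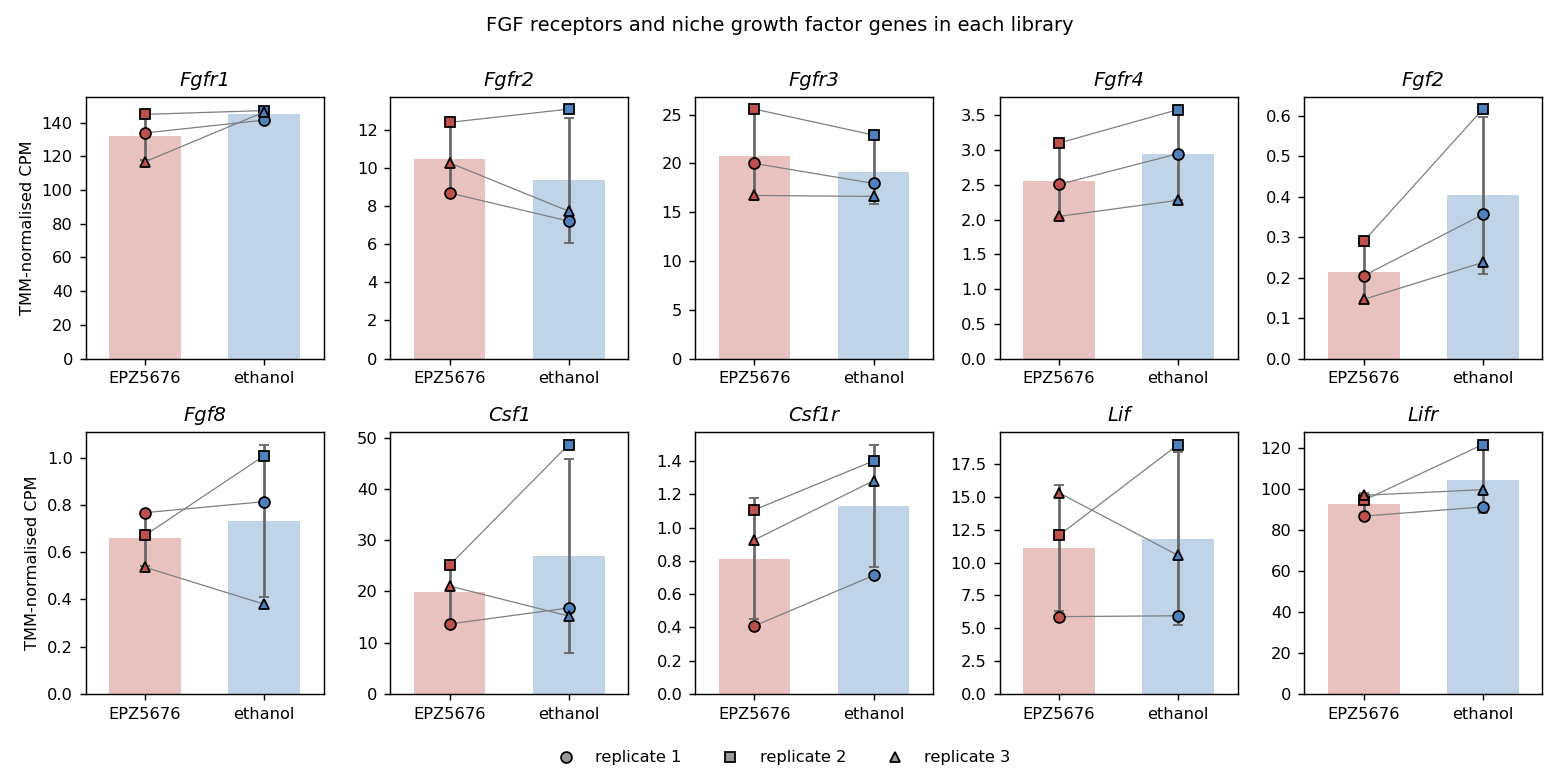
TMM-normalised CPM (vertical axes, from 0, each with its own range) of the 10 genes in EPZ5676 (red, left) and ethanol libraries (blue, right). Bars are means, whiskers the SD over 3 libraries, symbols single libraries, and grey lines join libraries with the same replicate number. The groups overlap in every panel. Ethanol replicate 2 is the highest library for every gene but Fgfr3, and is at 48.7 CPM for Csf1, 19.0 CPM for Lif and 122 CPM for Lifr.

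Of the 10 genes, Fgfr1 had the highest level in every library, and it varied little between libraries. It was at 134, 145 and 117 CPM in EPZ5676 replicates 1, 2 and 3, against 142, 147 and 146 CPM in the ethanol replicates. The ethanol libraries lay within a narrow range, EPZ5676 replicate 3 was the lowest library, and EPZ5676 replicate 2 fell among the ethanol values. Fgfr1 averaged 132 ± 14.2 CPM in EPZ5676 libraries and 145 ± 3.05 CPM in ethanol libraries (SD, n = 3 each). The log2 fold change of EPZ5676 over ethanol was -0.14 ± 0.090 (SE), at an adjusted p of 0.769 (edgeR, unblocked). Its 95% interval ran from -0.34 to 0.070, or from 0.789-fold to 1.05-fold. With the replicate block the edgeR estimate was -0.14 ± 0.069, at an adjusted p of 0.313. Unblocked, the estimate became -0.058 when EPZ5676 replicate 3 was left out and -0.21 when EPZ5676 replicate 2 was. The 2 genes whose centred log2 CPM over the 6 libraries differed least from that of Fgfr1 were Mast3 and Fhl3, with root mean square differences of 0.029 and 0.0313. Their own levels lay between 51.6 and 105 CPM, each with its lowest value in EPZ5676 replicate 3.

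Fgfr3 and Fgfr2 were both expressed at lower levels, and both were highest in the replicate 2 libraries. Fgfr3 was at 19.9965, 25.6 and 16.7 CPM in EPZ5676 replicates 1, 2 and 3, against 17.9, 22.9 and 16.6 CPM in the ethanol replicates. Each pair was higher with EPZ5676, by 0.16, 0.16 and 0.0086 on the log2 scale, and the groups overlapped. Its log2 fold change was 0.12 ± 0.19 (SE) with an adjusted p of 0.908 in the unblocked edgeR test, and the 95% interval ran from -0.30 to 0.55. Plekhg2 and Map7d1 had the nearest patterns, at 0.0268 and 0.0467.

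Fgfr2 was at 8.69, 12.4 and 10.3 CPM in EPZ5676 replicates 1, 2 and 3, against 7.22, 13.1 and 7.74 CPM in the ethanol replicates. EPZ5676 replicates 1 and 3 were above ethanol replicates 1 and 3, while the replicate 2 pair went the other way. Its log2 fold change was 0.17 ± 0.25 (SE) with a 95% interval from -0.39 to 0.74 and an adjusted p of 0.902 in the unblocked edgeR test. Without both replicate 2 libraries the estimate was 0.34, at an adjusted p of 0.37 in the edgeR test. Leaving out single libraries moved it from 0.017, without ethanol replicate 1, to 0.49, without ethanol replicate 2. Ago2 and Afap1 had the nearest patterns, at 0.0464 and 0.0624.

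Fgfr4, best known as the receptor for the bile acid regulator FGF15 in liver, was the scarcest receptor gene of the FGF family. Its libraries held 49, 171 and 42 counts in EPZ5676 replicates 1, 2 and 3, or 2.51, 3.10 and 2.05 CPM. In the ethanol replicates they held 58, 64 and 48 counts, or 2.95, 3.58 and 2.28 CPM. In each pair the EPZ5676 library was the lower, by 0.15 to 0.23 on the log2 scale, which is less than the spread between libraries of 1 group. For Fgfr4 the log2 fold change was -0.18 ± 0.25 (SE), with a 95% interval from -0.76 to 0.40 and an adjusted p of 0.902 in the unblocked edgeR test. It was -0.014 without ethanol replicate 2, -0.052 without EPZ5676 replicate 3, -0.36 without EPZ5676 replicate 2 and -0.34 without ethanol replicate 3.

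Scaled to exon length, Fgfr1 made up most of the summed FGF receptor level in every library. Its share was 78.6%, 75.2% and 77.7% in EPZ5676 replicates 1, 2 and 3, against 80.97%, 76.1% and 82.4% in the ethanol replicates. Fgfr3 held 13.9%, 15.7% and 13.2% with EPZ5676 and 12.2%, 14.0% and 11.1% with ethanol. Fgfr2 held 5.20% to 6.97% with EPZ5676 and 4.21% to 6.91% with ethanol, and Fgfr4 held 2.14% to 2.53% with EPZ5676 and 2.01% to 2.91% with ethanol. The order Fgfr1, Fgfr3, Fgfr2, Fgfr4 was thus the same in all 6 libraries. The summed level was 32.7, 37.0 and 28.8 CPM per kb in EPZ5676 replicates 1, 2 and 3, and 33.5, 37.1 and 34.0 CPM per kb in the ethanol replicates. Counts per gene do not separate the IIIb and IIIc splice forms, which bind different ligands.

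**Figure D2:**
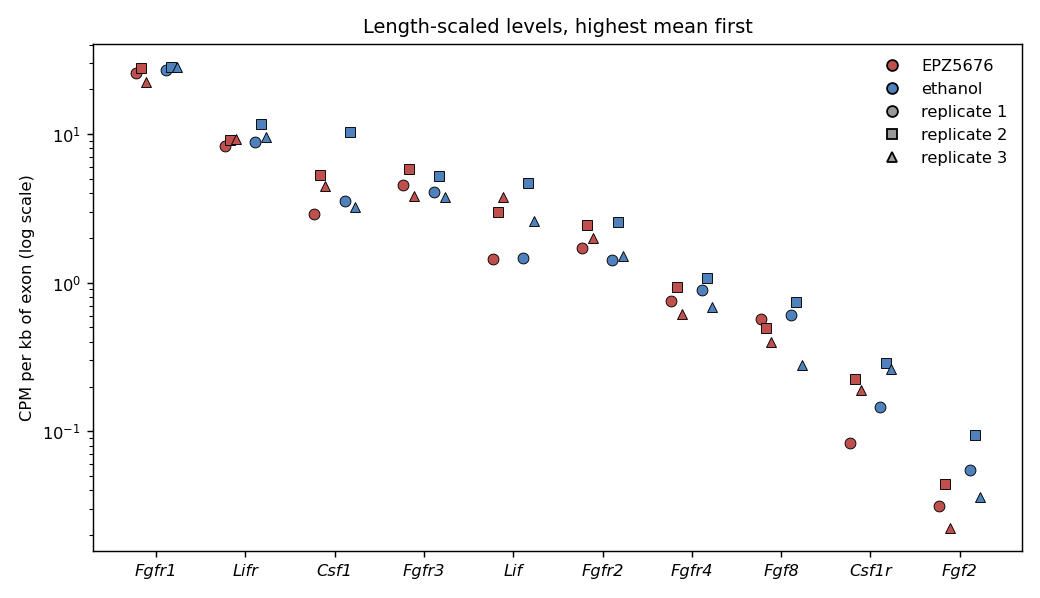
CPM per kb of exon (log axis) of the 10 genes in each of the 6 libraries, from the highest mean over all libraries on the left to the lowest on the right; colours give the group (EPZ5676 left, ethanol right of each pair) and symbols the replicate number. Fgfr1 lies above all other genes in every library (22.4 to 28.2 CPM per kb), and Fgf2 is at the bottom (0.0224 to 0.0944 CPM per kb).

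Over the whole set, levels per kb spanned from 26.5 CPM per kb for Fgfr1 to 0.0473 CPM per kb for Fgf2, as means over the 6 libraries. Lifr came second at 9.47 CPM per kb, and its libraries did not overlap with those of Fgfr1. Csf1 (4.96 CPM per kb) and Fgfr3 (4.54 CPM per kb) did not separate: Csf1 was the higher in 2 of 6 libraries. Lif (2.83 CPM per kb) was above Fgfr2 (1.94 CPM per kb) in 5 of 6 libraries. Below them, Fgfr4 (0.826 CPM per kb), Fgf8 (0.516 CPM per kb), Csf1r (0.199 CPM per kb) and Fgf2 kept their order in all 6 libraries, although the ranges of neighbours overlapped. Lengths are from GENCODE M21 and not from the annotation used for counting, so small differences per kb between genes depend on which exons were counted.

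The mRNAs of both FGF ligands in the set were near the limit of detection. Fgf2 had 4, 16 and 3 counts in EPZ5676 replicates 1, 2 and 3, and 7, 11 and 5 counts in the ethanol replicates. This is 0.205, 0.290 and 0.146 CPM with EPZ5676 against 0.356, 0.616 and 0.237 CPM with ethanol. Each EPZ5676 library was below the ethanol library of the same number, but the ranges overlapped and the exact Poisson 95% interval of a single library was wide, as from 0.0301 to 0.427 CPM for EPZ5676 replicate 3. These intervals cover counting error only. Fgf2 was not tested. It overlaps Nudt6 in RefSeq (GRCm38.p6), which had 188 to 516 counts per library. Whether counting used the strand is not given in the sources used here, so part of the few Fgf2 counts could belong to Nudt6.

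Fgf8, which encodes a ligand known from patterning of the embryo, had 15, 37 and 11 counts in EPZ5676 replicates 1, 2 and 3 and 16, 18 and 8 counts in the ethanol replicates. Its level was 0.767, 0.671 and 0.536 CPM with EPZ5676 and 0.814, 1.01 and 0.380 CPM with ethanol. The lowest and the highest library were both ethanol libraries. For Fgf8 the log2 fold change was -0.14 ± 0.39 (SE), with a 95% interval from -1.03 to 0.76 and an adjusted p of 0.955 in the unblocked edgeR test. Without ethanol replicate 2 the sign turned, to 0.15. The interval corresponds to 0.489-fold to 1.69-fold.

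Lifr came second among the 10 genes by level per kb. It was at 86.6, 94.3 and 96.8 CPM in EPZ5676 replicates 1, 2 and 3, against 91.1, 122 and 99.5 CPM in the ethanol replicates. Every EPZ5676 library was below the ethanol library of its number, and EPZ5676 replicates 2 and 3 were above ethanol replicate 1. Lifr averaged 92.6 ± 5.29 CPM in EPZ5676 libraries and 104 ± 15.7 CPM in ethanol libraries (SD, n = 3 each). The log2 fold change was -0.17 ± 0.11 (SE) with a 95% interval from -0.43 to 0.092 and an adjusted p of 0.775 in the unblocked edgeR test. With the replicate block the adjusted p in the edgeR test was 0.29. Most of the difference came from pair 2, which differed by -0.37 on the log2 scale, against -0.073 and -0.041 in pairs 1 and 3, and the estimate was -0.056 without both replicate 2 libraries. Dcun1d1 and Nup153 had the nearest patterns, at 0.0244 and 0.0296.

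Lif itself varied more between libraries than Fgfr1, Fgfr2, Fgfr3 or Lifr. It was at 5.88, 12.1 and 15.3 CPM in EPZ5676 replicates 1, 2 and 3, against 5.95, 19.0 and 10.5 CPM in the ethanol replicates. Both replicate 1 libraries were low, and the pairs differed by -0.016, -0.65 and 0.53 on the log2 scale, in both directions. The log2 fold change was -0.084 ± 0.44 (SE) with a 95% interval from -1.09 to 0.92 and an adjusted p of 0.978 in the unblocked edgeR test. Without both replicate 2 libraries it was 0.36, and without ethanol replicate 2 it was 0.43. The level of Lifr was 2.47 to 5.75 times that of Lif per kb with EPZ5676 and 2.497 to 5.98 times with ethanol.

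Among 10686 genes averaging 5 CPM or more, Ptgs2, which encodes the prostaglandin synthase COX-2, had the pattern nearest to that of Lif, at a root mean square difference of 0.0937 where the pattern of Lif itself had a root mean square of 0.63. It was at 21.8, 38.3 and 45.6 CPM in EPZ5676 replicates 1, 2 and 3, against 19.6, 59.4 and 33.7 CPM in the ethanol replicates. Grem1, which encodes a secreted BMP antagonist, followed at 0.191, with 4.603, 7.24 and 9.70 CPM with EPZ5676 against 4.42, 10.03 and 6.50 CPM with ethanol. These are descriptions over 6 libraries, and the genes compared share the depth and scaling of each library.

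Csf1 varied widely between libraries of 1 group, ethanol above all. It was at 13.7, 25.2 and 21.1 CPM in EPZ5676 replicates 1, 2 and 3, against 16.8, 48.7 and 15.2 CPM in the ethanol replicates. Ethanol replicate 2 was 3.04 times the mean of the other ethanol libraries, and EPZ5676 replicate 2 was 1.45 times the mean of the other EPZ5676 libraries. Csf1 averaged 19.96 ± 5.83 CPM in EPZ5676 libraries and 26.9 ± 18.9 CPM in ethanol libraries (SD, n = 3 each). Its log2 fold change was -0.42 ± 0.43 (SE) with a 95% interval from -1.41 to 0.58 and an adjusted p of 0.863 in the unblocked edgeR test.

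The direction of Csf1 rested on 1 library. Without ethanol replicate 2 the log2 fold change was 0.33, and without both replicate 2 libraries it was 0.12 (adjusted p of 0.622 and 0.821 in the edgeR test). In the fit with the replicate block, Csf1 was called lower when pair 3 was left out (-0.67, adjusted p of 0.00493, 1 residual degree of freedom), and was at 0.10 and not called when pair 2 was left out.

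The patterns nearest to Csf1 were those of 2 genes of contractile cells. Acta2, which encodes smooth muscle actin, was at 17.2, 33.4 and 24.0 CPM in EPZ5676 replicates 1, 2 and 3, against 22.6, 61.9 and 19.7 CPM in the ethanol replicates. Tagln, which encodes transgelin, an actin-binding protein, was at 16.1, 31.0 and 21.9 CPM with EPZ5676 against 19.8, 52.8 and 17.5 CPM with ethanol. Their root mean square differences from Csf1 were 0.0776 and 0.0811, where the pattern of Csf1 itself had a root mean square of 0.61. The median of the 10 peritubular and smooth muscle markers was not highest in ethanol replicate 2. It was 6.88, 7.45 and 6.09 CPM in EPZ5676 replicates 1, 2 and 3, against 4.86, 5.82 and 4.58 CPM in the ethanol replicates. The summed fibroblast markers were highest in ethanol replicate 2 (3199 CPM) and next in EPZ5676 replicate 2 (2320 CPM). Of the 26, 22 had a negative log2 fold change, against 7683 of 14855 over all genes, with a median of -0.22. The median level of the 26 was 25.4, 27.4 and 36.7 CPM in EPZ5676 replicates 1, 2 and 3. In the ethanol replicates it was 23.7, 41.0 and 30.5 CPM. Sum and median were thus lower with EPZ5676 in pair 2 only. By gene, 10 were lower in all 3 pairs and 0 higher, against 22.3% and 19.5% of all genes tested. None of the 26 was called in either edgeR fit, and all had groups that overlapped. The part of other cell types in the levels of Csf1 and Lif was not tested.

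**Figure D3:**
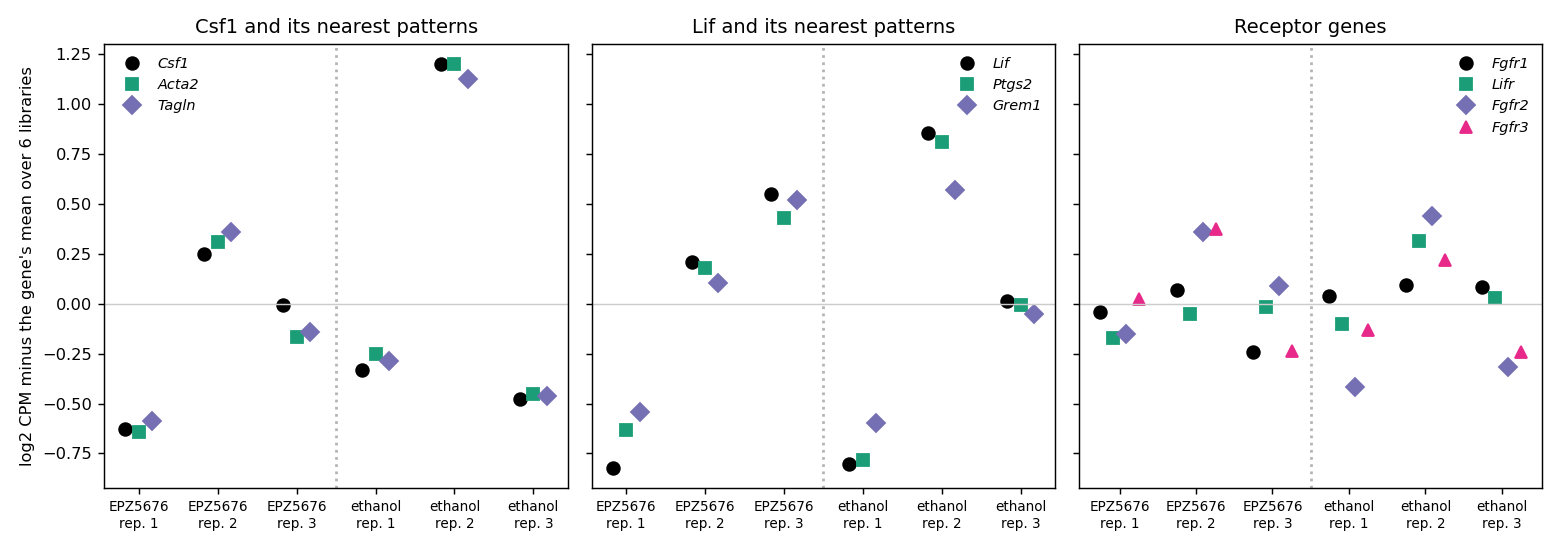
Log2 CPM minus the gene's mean over the 6 libraries (vertical axis) by library (horizontal axis, EPZ5676 left of the dotted line, ethanol right), for Csf1 and Lif with their 2 nearest genes each and for 4 receptor genes. Csf1, Acta2 and Tagln peak together in ethanol replicate 2, Lif, Ptgs2 and Grem1 are low in both replicate 1 libraries, and Fgfr1 lies between -0.24 and 0.093. Fgfr2 and Fgfr3 are, in EPZ5676 replicate 2, farther from 0 (0.36 and 0.37) than Csf1 (0.25) and Lif (0.21).

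Csf1r was scarce. It had 8, 61 and 19 counts in EPZ5676 replicates 1, 2 and 3, or 0.409, 1.11 and 0.926 CPM, and 14, 25 and 27 counts in the ethanol replicates, or 0.712, 1.40 and 1.28 CPM. Each EPZ5676 library was below the ethanol library of its number, and the groups overlapped. The log2 fold change was -0.41 ± 0.41 (SE), with a 95% interval from -1.34 to 0.53 and an adjusted p of 0.855 in the unblocked edgeR test. With the replicate block it was -0.47 ± 0.26, at an adjusted p of 0.365. Unblocked, it was -0.14 without EPZ5676 replicate 1, -0.23 without ethanol replicate 2, -0.66 without ethanol replicate 1 and -0.75 without EPZ5676 replicate 2. Per kb, the level of Csf1 was 23.5 to 34.5 times that of Csf1r with EPZ5676 and 12.3 to 36.0 times with ethanol.

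Macrophage markers were mostly scarce too. The 18 markers summed to 17.3, 24.1 and 16.7 CPM in EPZ5676 replicates 1, 2 and 3, and to 21.2, 23.6 and 19.8 CPM in the ethanol replicates. Cd68, a lysosomal gene also expressed outside macrophages, was the highest of them at 9.69 and 10.1 CPM on average with EPZ5676 and ethanol, followed by Lyz2 (1.49 and 2.51 CPM) and Itgam (1.28 and 1.32 CPM). Adgre1, which encodes the macrophage marker F4/80, had 3 to 11 counts with EPZ5676 and 3 to 7 counts with ethanol. C1qc had no count in EPZ5676 replicate 3, and 1 of the markers had none in ethanol replicate 2. Of the 9 tested markers, 8 had a negative log2 fold change, against 7683 of 14855 over all genes, and 0 were called in either fit. The part of macrophages in the Csf1r values was not tested.

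**Figure D4:**
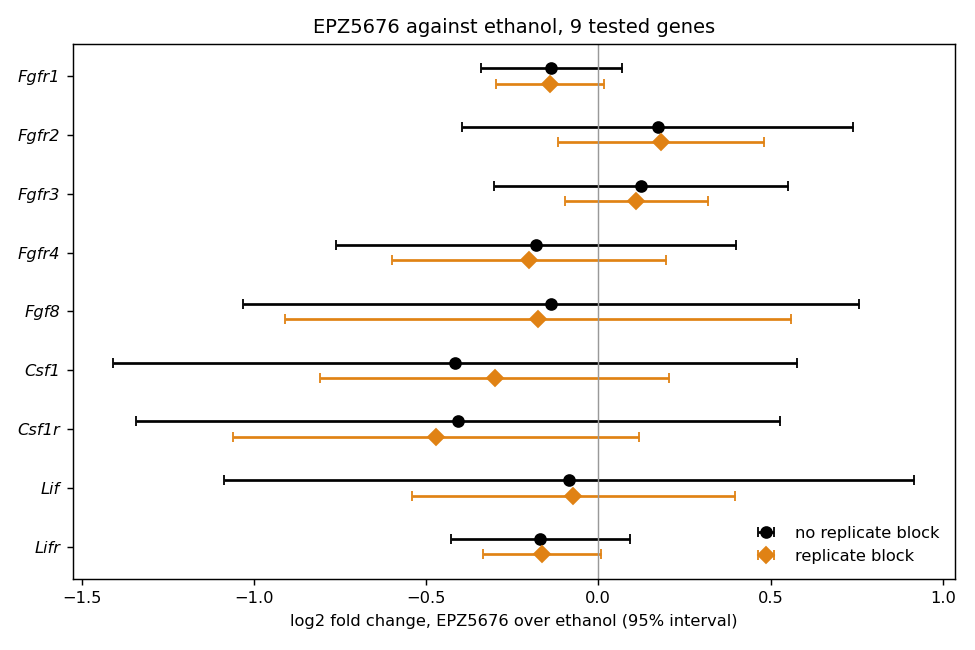
Log2 fold change of EPZ5676 over ethanol (horizontal axis) for the 9 tested genes, from edgeR fits without (black circles) and with the replicate block (orange diamonds); whiskers are 95% intervals. Every interval includes 0, and those of Fgfr1 (-0.34 to 0.070) and Lifr (-0.43 to 0.092) are the narrowest without the block.

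Genes that act with these receptors were described in 7 lists. No list gene was called by edgeR without the replicate block. With it 1 was called in lists of 9, 28, 25, 20, 27, 10 and 27 tested genes, where 0.653% of all genes tested were called. DESeq2 with the block called 7 of the 21 list genes named here. Blocked edgeR called 10 of them without pair 2, 9 without pair 3 and 0 without pair 1. The 21 were picked for the smallest unblocked p of their lists in these same libraries, so these counts are not evidence about the lists. Over all genes, DESeq2 with the block called 135 higher and 158 lower of 14855. Blocked edgeR called 363 and 432 of 14822 without pair 2, 486 and 275 of 14912 without pair 3, and 0 and 0 without pair 1. Fits without a pair had 1 residual degree of freedom. Of 20 other FGF ligand genes, 9 were tested and 0 were called in either edgeR fit. Their median log2 fold change was 0.54, against -0.0066 over all genes tested. It fell on the lowest of the 5 positive genes, which lay between 0.54 and 0.64, and the other 4 were below 0. Fgf13 was the most abundant of the 9. It was at 13.5, 12.9 and 13.3 CPM in EPZ5676 replicates 1, 2 and 3, against 8.75, 11.5 and 7.07 CPM in the ethanol replicates, with groups that did not overlap. Its log2 fold change was 0.54 ± 0.18 (SE), and its adjusted p in the edgeR test was 0.601 unblocked and 0.124 blocked. Blocked and without pair 2, Fgf13 was called higher (0.77, adjusted p of 0.0042). In the blocked edgeR test it was not called without pair 1 (adjusted p of 0.592) or without pair 3 (0.165). Groups did not overlap for 2 higher and 0 lower of the 9, against 14.9% of all genes tested. Fgf12 (0.64 ± 0.35) and Fgf18 (0.55 ± 0.33) averaged 0.724 and 1.27 CPM with EPZ5676 and 0.454 and 0.889 CPM with ethanol. Fgf17 went the other way. It was at 0.153, 0.544 and 0.0487 CPM in EPZ5676 replicates 1, 2 and 3, against 0.559, 1.23 and 0.237 CPM in the ethanol replicates, from 1 to 30 counts per library. Lower in all 3 pairs, with overlapping groups, it had a log2 fold change of -1.09 ± 0.75 unblocked and -1.39 ± 0.37 blocked, and its adjusted p of 0.117 with the block was the smallest of the list in the edgeR test. Fgf17 was chosen after its values were seen. FGF12 and FGF13 are intracellular proteins that bind sodium channels and are not classical receptor ligands.

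Of 28 tested co-receptor, decoy and heparan sulphate genes, 15 had a positive log2 fold change, 0 were called in either fit, and the median was 0.016. The 3 with the smallest p were Gpc2 and Gpc3, glypican genes, and Agrn, which encodes the proteoglycan agrin. Gpc2 was at 35.6, 43.8 and 36.3 CPM in EPZ5676 replicates 1, 2 and 3, against 30.7, 27.9 and 28.9 CPM in the ethanol replicates. All EPZ5676 libraries were above all ethanol libraries, with a log2 fold change of 0.40 ± 0.11 (SE), but its adjusted p in the edgeR test was 0.596 unblocked and 0.103 blocked. Blocked and without pair 3, Gpc2 was called (adjusted p of 0.0249). In the blocked edgeR test it was not called without pair 1 (adjusted p of 0.489) or without pair 2 (0.0986). Groups did not overlap for 1 higher and 1 lower of the 28, against 14.9% of all genes tested. Gpc3 had a log2 fold change of 0.32 ± 0.19 and Agrn one of -0.14 ± 0.088.

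The 25 adaptor and MAP kinase genes downstream of the receptors included 13 with a positive log2 fold change and 0 called in either fit, and their median was 0.0041. Of the 25, 4 higher and 1 lower had groups that did not overlap, against 14.9% of all genes tested. Plcg1, whose product, a phospholipase C, binds activated FGF receptors, had the smallest p of them. It was at 180, 184 and 191 CPM in EPZ5676 replicates 1, 2 and 3, against 153, 132 and 153 CPM in the ethanol replicates. The groups did not overlap, and the log2 fold change was 0.34 ± 0.081 (SE), and its adjusted p in the edgeR test was 0.54 unblocked and 0.0517 blocked. Plcg1 was called higher by DESeq2 with the block (adjusted p of 0.00434) and by blocked edgeR without pair 2 (0.00937) and without pair 3 (0.00863). Blocked edgeR without pair 1 did not call it (adjusted p of 0.404). Next were Araf, a RAF kinase gene, with a log2 fold change of 0.23 ± 0.081, and Gab2, a docking protein gene, with one of -0.26 ± 0.13. Frs2, the receptors' own adaptor, averaged 131 and 129 CPM with EPZ5676 and ethanol.

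Among 20 tested FGF and ERK response genes, 12 had a negative log2 fold change, 0 were called in either fit, and the median was -0.039. Spry4, Spred2 and Il17rd, which encode inhibitors of receptor tyrosine kinase signalling, had the smallest p. Spry4 was at 40.5, 33.9 and 30.5 CPM in EPZ5676 replicates 1, 2 and 3, against 52.4, 41.8 and 48.8 CPM in the ethanol replicates, with an adjusted p of 0.0629 with the block in the edgeR test. Spry4 was called lower by DESeq2 with the block (adjusted p of 0.0100) and by blocked edgeR without pair 2 (0.00366) and without pair 3 (0.0397). Blocked edgeR without pair 1 did not call it (adjusted p of 0.489). Spred2 and Il17rd had log2 fold changes of -0.22 ± 0.084 and -0.17 ± 0.070 (SE), and their groups, like those of Spry4, did not overlap. In all, groups did not overlap for 3 lower and 1 higher of the 20, against 14.9% of all genes tested.

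In the LIF and gp130 list, 27 genes were tested, 17 had a negative log2 fold change, and the median was -0.082. Without the block 0 were called, and with it 1 of the 27 was called lower, against 0.33% of all genes tested. This was Tfcp2l1, a transcription factor gene that acts downstream of LIF and STAT3 in mouse embryonic stem cells. It was at 65.8, 58.4 and 65.7 CPM in EPZ5676 replicates 1, 2 and 3, against 81.8, 78.7 and 84.4 CPM in the ethanol replicates. All EPZ5676 libraries were below all ethanol libraries. Its log2 fold change was -0.37 ± 0.084 (SE) without the block, at an adjusted p of 0.507, and -0.37 with it, at an adjusted p of 0.0485 in the edgeR test. Leaving out pair 1 gave -0.40 at an adjusted p of 0.468, in a fit that called 0 genes in all, and Tfcp2l1 was called by blocked edgeR without pair 2 (0.0105) and without pair 3 (0.0108). DESeq2 with the block called it too (0.00678).

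Bcl3 and Stat5b followed, with log2 fold changes of -0.55 ± 0.23 and -0.30 ± 0.13 (SE) and groups that overlapped. Both were called lower by blocked edgeR without pair 2 (adjusted p of 0.0175 and 0.00924). The same test called neither without pair 1 (0.646 and 0.684) or without pair 3 (0.379 and 0.176). Il6st, which encodes gp130, averaged 161 and 167 CPM, Stat3 402 and 372 CPM, and Socs3, a STAT3-induced inhibitor, 167 and 175 CPM with EPZ5676 and ethanol. These 3 were chosen after their values were seen, as was Frs2 above.

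Of 17 genes of the CSF1 receptor pathway and other colony-stimulating factors, 10 were tested, 7 of these had a negative log2 fold change, and 0 were called in either fit. The median was -0.19. Pik3r1, which encodes a regulatory subunit of PI3 kinase used by many receptors, was at 12.99, 13.8 and 13.7 CPM in EPZ5676 replicates 1, 2 and 3, against 17.6, 19.3 and 21.2 CPM in the ethanol replicates. The groups did not overlap, and the log2 fold change was -0.52 ± 0.12 (SE), and its adjusted p in the edgeR test was 0.532 unblocked and 0.0546 blocked. Pik3r1 was called lower by DESeq2 with the block (adjusted p of 0.0353) and by blocked edgeR without pair 2 (0.0138) and without pair 3 (0.0442). Blocked edgeR without pair 1 did not call it (adjusted p of 0.479). Csf2ra, which encodes the alpha chain of the GM-CSF receptor, was at 11.9, 10.8 and 8.43 CPM with EPZ5676 against 8.14, 6.78 and 6.84 CPM with ethanol, also without overlap. Its adjusted p in the blocked edgeR test was 0.103. It was 0.587 without pair 1, 0.0978 without pair 2 and 0.0295 without pair 3. Groups did not overlap for 1 higher and 2 lower of the 10, against 14.9% of all genes tested. Inpp5d, a lipid phosphatase gene, had a log2 fold change of -0.43 ± 0.20.

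The list of other niche growth factors and their receptors had 27 tested genes, of which 20 had a negative log2 fold change, against 7683 of 14855 over all genes. The median was -0.10, and 0 were called in either fit. The 3 with the smallest p were receptors. Flt1, a VEGF receptor gene, was at 22.6, 21.7 and 19.7 CPM in EPZ5676 replicates 1, 2 and 3, against 29.7, 32.3 and 26.4 CPM in the ethanol replicates. Gfra1, the GDNF co-receptor gene, was at 53.2, 59.3 and 44.0 CPM with EPZ5676 against 73.0, 68.8 and 66.5 CPM with ethanol. Both had groups that did not overlap, and with the block their adjusted p was 0.0519 and 0.0611 in the edgeR test. Groups did not overlap for 3 lower and 0 higher of the 27, against 14.9% of all genes tested. Kit, the receptor of differentiating spermatogonia, was at 121, 153 and 123 CPM with EPZ5676 against 179, 190 and 144 CPM with ethanol, at an adjusted p of 0.0586 with the block in the edgeR test. DESeq2 with the block called Flt1 (adjusted p of 0.0192), Gfra1 (0.00735) and Kit (0.00511) lower. So did blocked edgeR without pair 2 (0.0247, 0.00116 and 0.00397) and without pair 3 (0.0132, 0.0313 and 0.00264), in the same order. Blocked edgeR without pair 1 called none of the 3 (adjusted p of 0.484, 0.507 and 0.530).

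**Figure D5:**
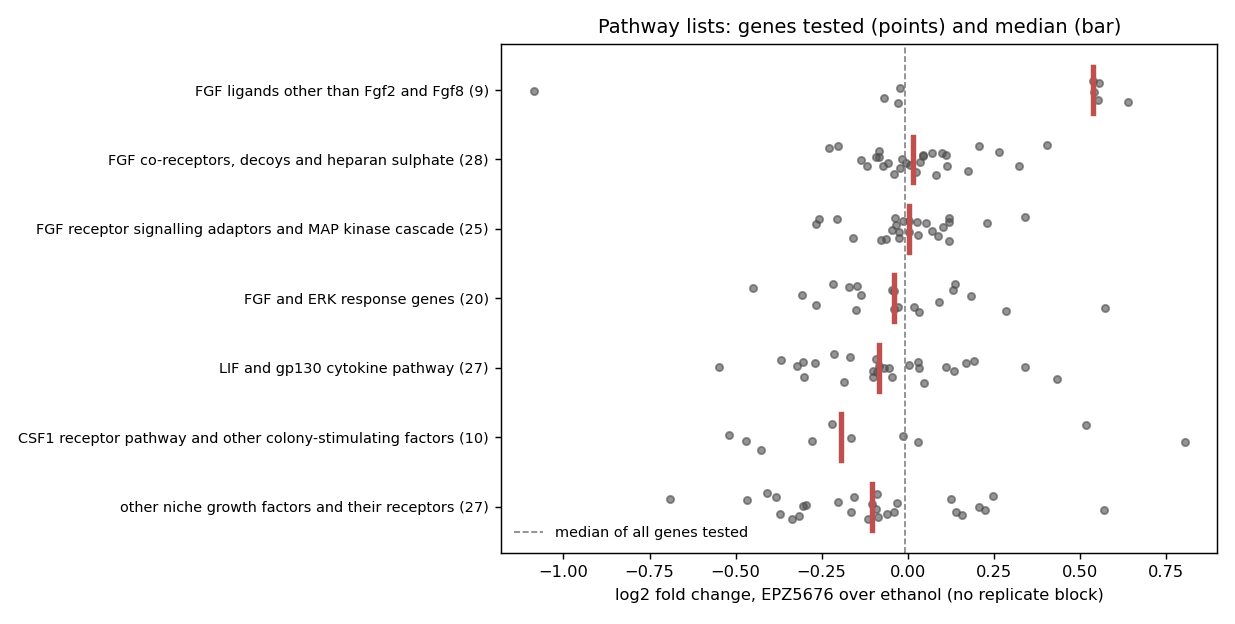
Log2 fold change of EPZ5676 over ethanol (horizontal axis, edgeR without the replicate block) of each tested gene (points) in 7 lists of related genes, with the list's median (red bar), the number of genes tested in brackets and the median of all genes tested (dashed line, -0.0066). Medians lie between -0.19 and 0.016 except for the other FGF ligands, at 0.54.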

How the data were processed

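RNA was measured in 3 EPZ5676 and 3 ethanol libraries. Per the labels' protocols, TRIzol was used for extraction and a stranded mRNA kit for the libraries. The authors deposited whole-number counts per gene symbol. The tools named in the submitters' processing notes are STAR, Bowtie, featureCounts and edgeR, with mm9 as the build, but no version or role. Which annotation was counted, whether by strand, and how multiply aligned reads were handled is not given in the sources used here. A deposited table of repeat families was not used here.

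The deposited counts were used unchanged, in R 4.3.3. Genes kept by filterByExpr (14855 of 24495) were scaled by TMM and tested with the quasi-likelihood test of edgeR 4.0.16 (2-sided), and p was adjusted by Benjamini-Hochberg over all genes tested, with a threshold of 0.05. SE is the size of the log2 fold change divided by the root of F, and 95% intervals use the test's degrees of freedom. Patterns were compared on log2 CPM with a prior count of 2. Levels per kb use the exon union of GENCODE M21 basic transcripts, and no coordinates are given because that annotation is not on mm9. The fit was tested on simulated counts.

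Same-numbered libraries deviated together from their group means across genes, at correlations of 0.411, 0.614 and 0.335 for replicates 1, 2 and 3, all over the bound of 0.1, so values with the replicate number as a block stand beside results they change. No label says what the numbers stand for. Between different numbers they were 0.278 and 0.149 for replicates 1 and 3, also over the bound, and below 0 for pairs with a replicate 2. The bound thus does not tell same-numbered pairs of replicates 1 and 3 from mixed ones. Residual degrees of freedom were 4 without the block and 2 with it. In all 15 pairs of libraries the chi-square per degree of freedom over genes was above 3, so none was a copy of another. P-values without the block measure the spread between libraries that the series calls biological triplicates. Those with the block measure how much the differences between same-numbered libraries vary.

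The genes, the 14 gene lists and the tests were chosen with earlier results of these data known. Genes named besides the 10 were the 3 with the smallest unblocked p in each of 7 pathway lists and any called there, the 2 nearest patterns of each of the 10 that averaged 5 CPM or more, and the 3 highest markers of each cell type list, beside defining markers at or near 0 and genes said to be chosen later. One marker among these is not reported here. No list was tested as a set. Alternatives were other scalings and filters, DESeq2 1.42.0, limma-voom (limma 3.58.1), the block, and leaving out libraries or pairs.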

Additional observations from a re-analysis of the deposited data

How the results depend on the processing

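Without the replicate block, 0 genes were called higher and 0 lower by edgeR, also with the other scalings and filters and without any 1 library, and by limma-voom (562 higher and 560 lower at an unadjusted p under 0.05). With the replicate block, edgeR called 48 higher and 49 lower genes, DESeq2 called 22 and 28 without the block and 135 and 158 with it, and edgeR without both replicate 2 libraries called 6 and 4. Leaving out 1 pair, the blocked edgeR fit called 0 to 486 higher and 0 to 432 lower genes: 0 and 0 without pair 1, 363 and 432 without pair 2, and 486 and 275 without pair 3. Among the 10 genes, Csf1 was called in 1 alternative, with the block and without pair 3 (-0.67), and no other call was made or lost. Fgfr1 (-0.21 to -0.049), Fgfr2 (0.017 to 0.49), Fgfr4 (-0.36 to -0.014), Csf1r (-0.75 to -0.14) and Lifr (-0.25 to -0.046) kept their direction in all 18 alternatives, but their sizes moved by over 1.5 times. The sign turned for Fgfr3 without EPZ5676 replicate 2 (-0.061), for Fgf8 without ethanol replicate 2 (0.15), without both replicate 2 libraries (0.14) and with the block and without pair 2 (0.14), and for Csf1 in the same 3 settings (0.33, 0.12 and 0.10). Lif turned in these (0.43, 0.36 and 0.32), without EPZ5676 replicate 1 (0.21) and in limma-voom (0.027), and the cause was not tested. Leaving out 1 library or pair gave ranges of -0.061 to 0.27 for Fgfr3, -0.46 to 0.15 for Fgf8, -0.70 to 0.33 for Csf1 and -0.40 to 0.43 for Lif. The 21 pathway genes named by rule, for small p in these same libraries, kept their direction throughout. Without the block 0 of them were called, and with it edgeR called 1 (Tfcp2l1) and DESeq2 called 7 (Plcg1, Spry4, Tfcp2l1, Pik3r1, Flt1, Gfra1 and Kit). The blocked edgeR fit called 10 without pair 2, 9 without pair 3 and 0 without pair 1. Dividing by the longest transcript moved Fgfr1 to 28.8 CPM per kb with ethanol, Fgfr2 to 2.43 and Lifr to 9.59 CPM per kb with EPZ5676, and the others by less than the SD over libraries. Counts limit Fgf2, Fgf8 and Csf1r, with 3 to 61 per library.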
